A study of Rattus norvegicus with 20 samples.

Results

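The genes described here encode 9 ion channel subunits of the cardiac action potential: the delayed rectifier potassium channel genes Kcnq1, Kcne1 and Kcnh2, the transient outward channel genes Kcnd2 and Kcnd3, the inward rectifier genes Kcnj2 and Kcnj3, and the pacemaker channel genes Hcn2 and Hcn4. They were found by the gene name and description that the array files give for each probe, with 15 probes under these names, and they are 9 of the 30508 genes measured. No sodium channel gene is among them. The RNA came from primary heart cell cultures of newborn rats, labelled as cardiomyocytes and kept for 1 day in DMEM medium before treatment. Diclofenac, a nonsteroidal anti-inflammatory drug that inhibits cyclooxygenases, was given at a reference concentration (1), at 1/5 of it or at 1/25 of it, for 6 h or 24 h, and each of the 6 combinations had 3 arrays. Untreated cultures had 2 arrays. What the reference concentration is in molar terms, the rat strain, the vehicle and when the untreated cultures were taken are not in the labels. Nor do they say that replicates were separate cultures, so each p-value covers the spread of these samples alone, and that spread may be technical.

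The cardiac action potential begins with inward sodium current and is ended by several outward potassium currents. Transient outward channels carry the early repolarizing current, the delayed rectifiers end the plateau, and inward rectifiers hold the resting potential. Pacemaker channels open on hyperpolarization and carry the inward current of spontaneously beating cells, a property that neonatal rat heart cells show in culture. KCNH2 is known as the main target of drugs that prolong repolarization, by block of the channel protein, which an RNA measurement does not read.

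Each value below is a probe's log2 signal minus the 75th percentile of its own array, so a value of 0 is a signal at that percentile; values of different probes are not compared. Probe positions are those of the array files, on build rn3. The probe sequences that follow show what was hybridized for 6 of the genes, with those of Kcnj3, Hcn2 and Hcn4 being second probes, shown because they are set beside the probe that represents the gene; they are printed 5′ to 3′ in lower case as the array files give them, and no part is marked.
Kcnq1 probe A_44_P212703, chr1:203886481-203890360, plus strand: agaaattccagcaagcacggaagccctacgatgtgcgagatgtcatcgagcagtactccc
Kcne1 probe A_44_P121280, chr11:32401046-32401105, minus strand: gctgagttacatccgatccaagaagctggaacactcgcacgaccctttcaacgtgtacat
Kcnj2 probe A_43_P11900, chr10:100590477-100590536, plus strand: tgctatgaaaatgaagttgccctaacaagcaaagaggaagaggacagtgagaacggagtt
Kcnj3 probe A_44_P452163, chr8:70761072-70761131, plus strand: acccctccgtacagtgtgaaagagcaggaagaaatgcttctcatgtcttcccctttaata
Hcn2 probe A_43_P15654, chr7:11485814-11485873, minus strand: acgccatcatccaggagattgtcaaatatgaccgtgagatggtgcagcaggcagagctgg
Hcn4 probe A_44_P465011, chr8:62669795-62669854, plus strand: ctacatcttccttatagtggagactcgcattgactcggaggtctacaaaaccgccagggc
The Kcnq1 probe has 60 bases but its position spans 3880, so its ends lie in separate stretches of the genome. The array files place the Kcnj3 probes that are described as Kcnj3 on chromosome 8 and the Kcnd3 probes on chromosome 3, whereas RefSeq's table for assembly GRCr8 gives chromosomes 3 and 2 for these genes. A further probe, A_44_P247906, carries the gene name Kcnj3 but is described as a partial G-protein gated potassium channel mRNA; it was kept apart from Kcnj3.

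On the 20 arrays, 64.1% to 88.2% of the 43379 spots were well above background. The lowest share was that of the 1/5, 24 h array 3, and 3 other arrays were under 80%: 1/25, 24 h array 1 at 72.4%, 1/25, 6 h array 2 at 75.1%, and 1/5, 24 h array 1 at 76.5%. All 10 cardiomyocyte markers, among them Myh6, Tnnt2 and Actn2, were measured above background on all arrays except that 1 was not on every array of the 1/5, 24 h group. Markers of fibroblasts (8 of 8 measured), smooth muscle (3 of 4), endothelium (5 of 5) and leukocytes (4 of 4) were measured too, beside erythroid (2 of 4), neuronal (4 of 6) and Schwann cell or glial markers (3 of 4). In such bulk samples, fewer cells of a type and less RNA per cell cannot be told apart.

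None of the 9 channel genes passed the test in any comparison. Of 153 tests (9 genes in 17 comparisons, limma, Benjamini-Hochberg adjustment over all genes), 0 had an adjusted p under 0.05 and 13 had an unadjusted p under 0.05. The count of 0 became 11 with the slide as a random block and 24 with array weights, under which 48.7% and 69.6% of all genes were called for 24 h against 6 h. The lowest adjusted p was 0.0698, for Kcnj3 at 24 h against 6 h. In a moderated F test of any difference among the 7 groups, 0 of 9 passed, beside 0.695% of all genes; the lowest adjusted p was again that of Kcnj3 (0.218), and the highest that of Hcn4 (0.735). The background was low in most comparisons. The share of all genes called was 21.1% for 24 h against 6 h over the 3 concentrations, 0.233% for that contrast at 1, 0.0983% at 1/5, and 0.184% for 1/5 for 24 h against untreated. It was 0.00656% for 1 for 6 h against untreated and for 1 against 1/5 at 6 h, 0.00328% for 1 and for 1/25 at 24 h against untreated and for 1/5 against 1/25 at 24 h, and 0% in the other 8.

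The 13 tests with an unadjusted p under 0.05 belonged to 6 genes: 5 to Kcnj3, 2 each to Kcnq1, Kcnh2 and Kcnd2, and 1 each to Kcnd3 and Kcne1. Against untreated there were 2 at 1/5 for 24 h, where 30.4% of all genes reached that level, and 1 each at 1 (4.56%) and 1/25 (13.4%) for 24 h. At 6 h there were 0, beside 1.48%, 1.09% and 1.16% at 1, 1/5 and 1/25. For 24 h against 6 h there was 1 each at 1 (13.8%), at 1/5 (33%) and over the concentrations (41.1%), and 0 at 1/25 (9.91%). Between concentrations there were 2 each for 1 against 1/25 over the times (7.63%) and 1/5 against 1/25 at 24 h (6.68%), 1 each for 1/5 against 1/25 at 6 h (2.78%) and 1 against 1/5 at 24 h (21.5%), and 0 for 1 against 1/5 at 6 h (2.8%). The interaction (2.57%) and all treated against untreated (2.18%) had 0. For 24 h against 6 h over the concentrations, 1 of 9 is a smaller share than that of all genes.

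**Figure D1:**
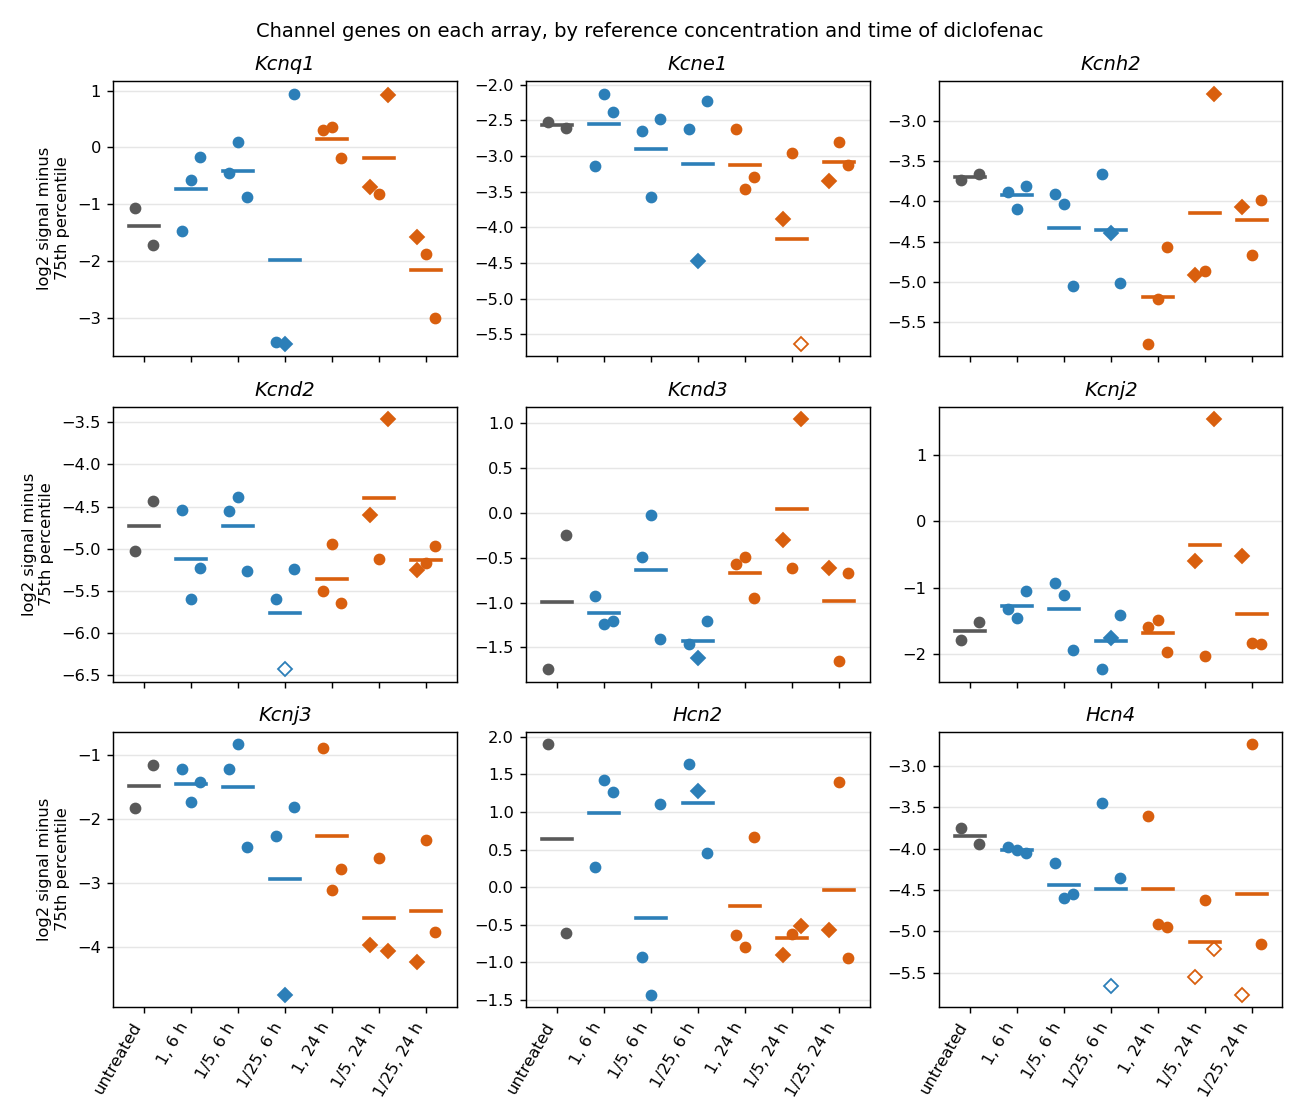
Log2 signal minus the array's 75th percentile (vertical axis) for each channel gene on each array, by group (horizontal axis: reference concentration and hours; grey untreated, blue 6 h, orange 24 h). Bars are group means, diamonds are the 4 arrays with under 80% of spots well above background, and open symbols are spots not well above background. The 1/5, 24 h array 3 is the highest point for Kcnh2, Kcnd2, Kcnd3 and Kcnj2 and the lowest for Kcne1.

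Among the delayed rectifier genes, Kcnq1 encodes the pore of the slow delayed rectifier. Its values were -1.06 and -1.72 in the untreated cultures. At 6 h they were -1.47, -0.56 and -0.17 at 1, -0.44, 0.09 and -0.88 at 1/5, and -3.42, -3.45 and 0.95 at 1/25. At 24 h they were 0.30, 0.36 and -0.19 at 1, -0.69, -0.81 and 0.93 at 1/5, and -1.57, -1.87 and -3.00 at 1/25. Both 1/25 groups thus had the lowest means, but the 1/25, 6 h array 3 held the highest value of all 20 arrays. Over both times, 1 minus 1/25 was 1.77 ± 0.61 (SE; 95% interval 0.48 to 3.06), with an unadjusted p of 0.010 and an adjusted p of 0.644 in limma. Without the 1/25, 6 h array 3 the difference was 2.50 with an adjusted p of 0.0106, so the call turned on 1 array.

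Kcnj3 also had an interval above 0 in this comparison, at 1.33 ± 0.53 (adjusted p = 0.644). Of the 9 genes, 7 were above 0 in 1 minus 1/25, with a median of 0.26, beside a median of 0.11 over all genes, 58.1% of which were above 0. At 24 h, Kcnq1 at 1/5 exceeded 1/25 by 1.96 ± 0.86 (adjusted p = 0.483), and the 3 arrays of each group did not overlap. Kcnd3 was the other member without overlap there, so 2 of 9 stood beside 4.61% of all genes. On slide 5, which held the 3 arrays of 1/5 and 1 of 1/25 at 24 h, the Kcnq1 difference was 1.38. The group means of Kcnq1 ran, from high to low, 1 at 24 h, 1/5 at 24 h, 1/5 at 6 h, 1 at 6 h, untreated, 1/25 at 6 h and 1/25 at 24 h, and every pair of neighbours overlapped.

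Kcne1 encodes the small accessory subunit that slows Kcnq1 channels. It measured -2.52 and -2.61 in the untreated cultures. The 6 h arrays held -3.15, -2.13 and -2.39 at 1, -2.65, -3.57 and -2.48 at 1/5, and -2.63, -4.47 and -2.23 at 1/25. The 24 h arrays held -2.62, -3.46 and -3.29 at 1, -3.88, -2.96 and -5.63 at 1/5, and -3.35, -2.80 and -3.13 at 1/25. All 9 arrays at 24 h lay below both untreated arrays, so in each of these 3 comparisons the groups did not overlap. The fitted difference from untreated was -1.59 ± 0.69 at 1/5 (adjusted p = 0.139), -0.56 ± 0.69 at 1 and -0.53 ± 0.69 at 1/25 (adjusted p = 0.999 and 0.676). The 2 lowest Kcne1 values lay on 2 of the 4 arrays with a low share of spots above background; without the 1/5, 24 h array 3 the Kcne1 difference at 1/5 was -0.86, and without array 2 of that group it was -2.19 with an adjusted p of 0.0219. Its opposite course to Kcnj2 over the 20 arrays had a Pearson r of -0.67.

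Kcnh2 encodes the pore of the rapid delayed rectifier. The untreated arrays gave -3.73 and -3.66. Values at 6 h were -3.88, -4.09 and -3.81 at 1, -3.91, -4.03 and -5.04 at 1/5, and -3.66, -4.39 and -5.02 at 1/25. Values at 24 h were -5.77, -5.21 and -4.57 at 1, -4.91, -4.87 and -2.66 at 1/5, and -4.06, -4.66 and -3.98 at 1/25. The 3 arrays at 1 for 24 h lay below every untreated array and below every array at 1 for 6 h. That group's mean was 1.49 ± 0.60 lower than untreated (unadjusted p = 0.0237, adjusted p = 0.999) and 1.26 ± 0.54 lower than at 6 h (unadjusted p = 0.0315, adjusted p = 0.325). At the lower concentrations 24 h minus 6 h was 0.18 ± 0.54 at 1/5 and 0.12 ± 0.54 at 1/25; the interaction of 1 against 1/25 with time was -1.38 ± 0.76 (adjusted p = 1.00). At 1/5 the sign turned on array 3 at 24 h: without it, 24 h minus 6 h in Kcnh2 was -0.56, and 1/5 for 24 h minus untreated went from -0.45 to -1.20.

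Not overlapping with untreated was common among all genes, and the members' counts are read against that. For 1 for 24 h against untreated it held for 3 of 9 members (Kcnq1 higher, Kcne1 and Kcnh2 lower) and 31.8% of all genes. For 1/5 for 24 h it held for 4 of 9 (Kcnq1 higher, Kcne1, Kcnj3 and Hcn4 lower) and 40.1%, and for 1/25 for 24 h for 3 of 9 (Kcne1, Kcnh2 and Kcnj3, all lower) and 40.4%. At 6 h it held for 3 of 9 at 1 beside 25.8%, 3 of 9 at 1/5 beside 20.8%, and 1 of 9 at 1/25 beside 10.9%. These shares of the 9 genes lie near the background in every one of the 6 comparisons, which share their 2 untreated arrays. For 24 h against 6 h it held for 2 of 9 at 1 (Kcnh2 and Kcnj2, lower) beside 38.5%, 2 of 9 at 1/5 (Kcnj3 and Hcn4, lower) beside 28.3%, and 0 of 9 at 1/25 beside 15.5%. Between concentrations it held for 1 of 9 (Hcn4) for 1 against 1/5 at 6 h beside 26.2%, 0 for 1/5 against 1/25 at 6 h beside 9.27%, and 0 for 1 against 1/5 at 24 h beside 16.8%. With arrays pooled it held for 0 of 9 for all treated against untreated beside 0.403%, for 24 h against 6 h beside 0.59%, and for 1 against 1/25 beside 0.239%.

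Of the transient outward channel genes, Kcnd2 encodes a pore subunit of the fast transient outward current. Its untreated values were -5.02 and -4.44. At 6 h it read -4.54, -5.59 and -5.23 at 1, -4.55, -4.38 and -5.27 at 1/5, and -5.60, -6.43 and -5.24 at 1/25. At 24 h it read -5.50, -4.94 and -5.65 at 1, -4.60, -5.12 and -3.46 at 1/5, and -5.25, -5.17 and -4.97 at 1/25. Only the 1/25, 6 h group lay wholly below the untreated arrays, by 1.02 ± 0.49 in the means (adjusted p = 1.00), and its lowest array was not well above background. With 1/5 minus 1/25 at 6 h at 1.02 ± 0.44 and 1 minus 1/5 at 24 h at -0.96 ± 0.44, neither passed (adjusted p = 1.00 and 0.219). Without the 1/5, 24 h array 2, the latter difference in Kcnd2 was -1.33 with an adjusted p of 0.0404. From 6 h to 24 h over the concentrations Kcnd2 differed by 0.24 ± 0.25 (adjusted p = 0.476), and by 0.81 with an adjusted p of 0.0441 after quantile normalization.

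Kcnd3 encodes the other pore subunit of that current. The probe that represents it, A_44_P1052794, gave -1.74 and -0.25 in the untreated cultures, an SD of 1.06 that no treated group reached. At 6 h the arrays gave -0.92, -1.24 and -1.21 at 1, -0.49, -0.03 and -1.41 at 1/5, and -1.46, -1.62 and -1.20 at 1/25. At 24 h they gave -0.57, -0.50 and -0.96 at 1, -0.30, -0.62 and 1.04 at 1/5, and -0.62, -1.65 and -0.67 at 1/25. The mean was higher at 24 h by 0.53 ± 0.28 over the concentrations (adjusted p = 0.154), and by 0.45, 0.68 and 0.45 at 1, 1/5 and 1/25. Without the 1/5, 24 h array 3 the Kcnd3 average was 0.36; with each array scaled to its median it was 0.92, with an adjusted p of 0.0393. Kcnd2 and Kcnd3 varied together over the 20 arrays (r = 0.78), as did Kcnj2 and Kcnd3 (r = 0.76); the highest value of all 3 genes was on the 1/5, 24 h array 3.

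The second Kcnd3 probe, A_44_P125646, went the other way. It read -5.78 and -5.56 in the untreated cultures, and 8 of its 9 values at 6 h but only 3 of 9 at 24 h were well above background. The 6 h values had a lowest of -6.72, a median of -4.29 and a highest of -4.00; the 24 h values had a lowest of -8.46, a median of -6.68 and a highest of -4.53. Only at 1 and 1/5 for 6 h was it well above background on all arrays, so it was kept through groups in which it was high. Tested among all 35069 probes, it was lower at 24 h over the concentrations (adjusted p = 0.0128, limma). That p-value is no separate support, since the groups that let the probe in are part of the test. The measured difference of -2.03 ± 0.48 has no exact size, since 6 of the 9 values at 24 h were not well above background. In the 1/5, 24 h group no array was well above background, so there the 6 h mean of -4.87 ± 0.49 (SD, n = 3) was at least 1.57-fold higher, with the background bound of each 24 h array in place of the measured mean of -7.06. The 2 Kcnd3 probes had a Pearson r of -0.35 over the 20 arrays, and no direction is given here for Kcnd3 itself.

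**Figure D2:**
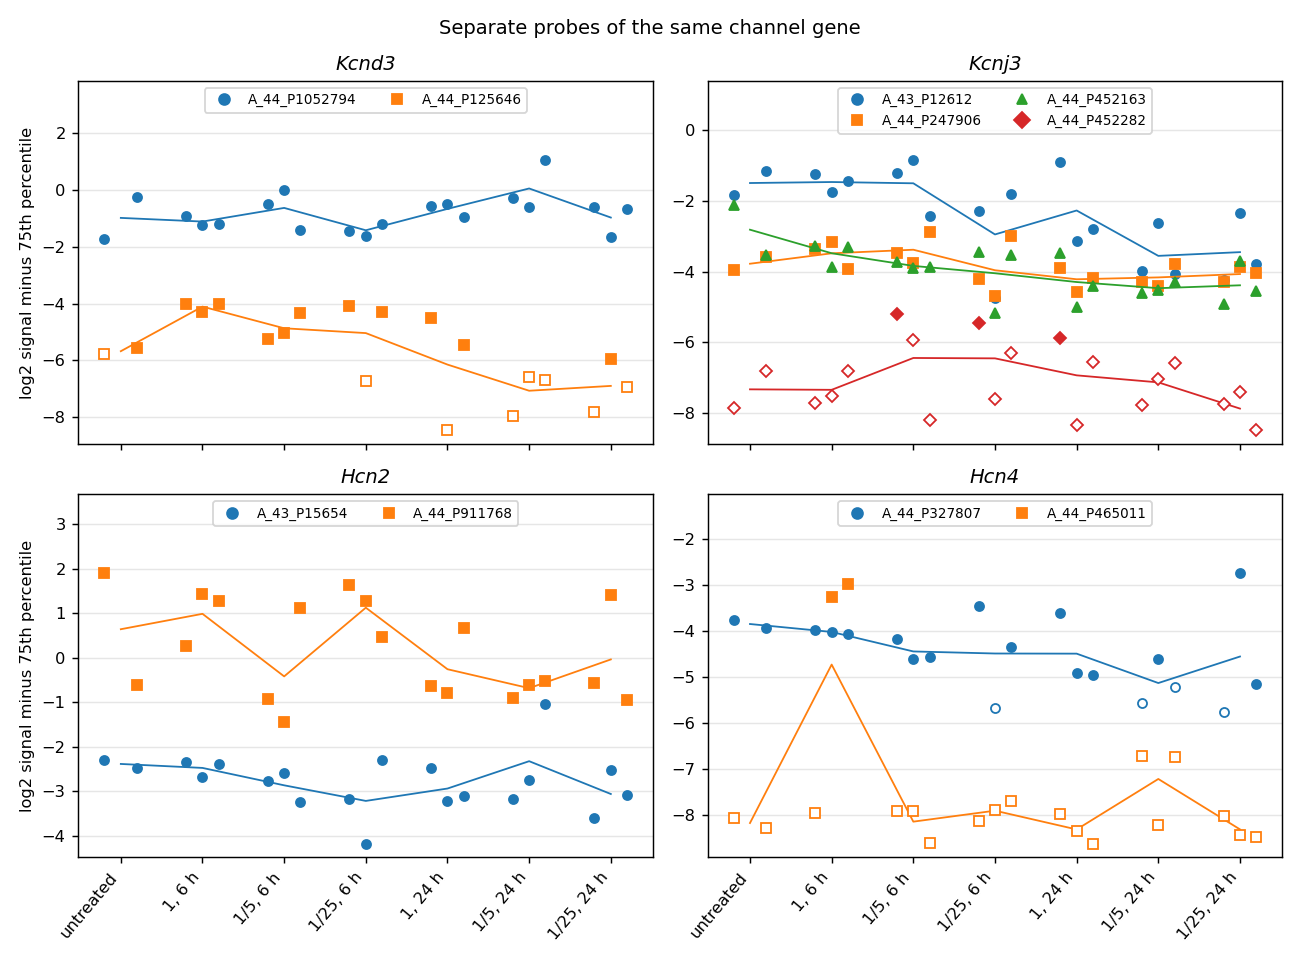
Log2 signal minus the array's 75th percentile (vertical axis) for each probe of Kcnd3, Kcnj3, Hcn2 and Hcn4 by group (horizontal axis: reference concentration and hours); points are arrays, lines join group means, and open symbols are spots not well above background. The 2 Kcnd3 probes diverge between 6 h and 24 h, whereas the Kcnj3 probes that were kept lie lower at 24 h. A_44_P247906, which carries that gene name, is the probe described as a partial channel mRNA and kept apart from Kcnj3.

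Kcnj2 encodes the main subunit of the inward rectifier current of ventricular muscle. It measured -1.78 and -1.52 without treatment. At 6 h its values were -1.32, -1.46 and -1.05 at 1, -0.94, -1.10 and -1.94 at 1/5, and -2.23, -1.76 and -1.42 at 1/25. At 24 h they were -1.59, -1.49 and -1.98 at 1, -0.60, -2.03 and 1.55 at 1/5, and -0.52, -1.83 and -1.85 at 1/25. The arrays at 1 for 6 h lay above both untreated arrays and above the 3 arrays at 1 for 24 h, by 0.38 ± 0.70 and 0.41 ± 0.63 in the means (adjusted p = 1.00 and 0.859). The difference of 1/5 for 24 h from untreated was 1.29 ± 0.70 (adjusted p = 0.214) in Kcnj2, was 0.34 without array 3 of that group, and was 2.13 with an adjusted p of 0.0161 without array 2. Its 2 next highest values at 24 h after that of array 3 were also on low-share arrays.

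Kcnj3 encodes a subunit of the acetylcholine-activated, G-protein gated inward rectifier of atrial and nodal cells. It gave -1.83 and -1.16 in the untreated cultures. The 6 h arrays read -1.23, -1.74 and -1.42 at 1, -1.22, -0.84 and -2.44 at 1/5, and -2.28, -4.75 and -1.81 at 1/25. The 24 h arrays read -0.90, -3.12 and -2.79 at 1, -3.98, -2.62 and -4.06 at 1/5, and -4.24, -2.33 and -3.77 at 1/25. All arrays of the 1/5 and 1/25 groups at 24 h lay below both untreated arrays, whereas at 1 for 24 h array 1 was above them. From 6 h to 24 h the mean difference over the concentrations was -1.12 ± 0.43 (95% interval -2.03 to -0.21, unadjusted p = 0.0191, adjusted p = 0.0698), and it was -0.81 ± 0.75 at 1, -2.05 ± 0.75 at 1/5 and -0.50 ± 0.75 at 1/25. This falls short of the threshold in a contrast in which 21.1% of genes passed.

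Single arrays decided whether Kcnj3 passed. Leaving out the 1/25, 6 h array 2 gave -1.42 with an adjusted p of 0.0139. Without the 1, 24 h array 1 the value was -1.35 (adjusted p = 0.0321), without the 1/5, 24 h array 2 it was -1.27 (0.0304), and without the 1/25, 24 h array 2 it was -1.31 (0.0293). Without the 1/5, 24 h array 2 the differences of Kcnj3 at 1/5 for 24 h from untreated and from 6 h passed too, at -2.53 and -2.52 (adjusted p = 0.0386 and 0.0247), beside -2.06 ± 0.84 and -2.05 ± 0.75 with it (0.132 and 0.113). The share of spots above background moved with Kcnj3 as well: its 4 lowest values lay on the 4 low-share arrays, 3 of which were 24 h arrays. With that share as a covariate the difference was -0.58, and without the 4 arrays -0.98. The second probe A_44_P452163 was lower at 24 h by 0.59 ± 0.29 (adjusted p = 0.129 among all probes, limma). A_44_P247906, which was kept apart since its description does not name Kcnj3, was lower by 0.54 ± 0.23 (adjusted p = 0.0926). Their correlations with the representing probe were 0.75 and 0.56 over 20 arrays. One more probe, A_44_P452282, was well above background on only 3 arrays.

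Of the pacemaker channel genes, Hcn2 encodes a pacemaker subunit of ventricular and nodal cells. Probe A_44_P911768 read 1.90 and -0.62 in the untreated cultures, with the first of these spots saturated. Its 6 h values were 0.26, 1.43 and 1.27 at 1, -0.93, -1.43 and 1.11 at 1/5, and 1.64, 1.28 and 0.46 at 1/25. Its 24 h values were -0.64, -0.80 and 0.67 at 1, -0.91, -0.62 and -0.52 at 1/5, and -0.57, 1.40 and -0.94 at 1/25. Of the 9 arrays at 24 h, 7 lay below 0, beside 2 of 9 at 6 h. The mean difference was -0.89 ± 0.43 (95% interval -1.80 to 0.02, adjusted p = 0.129). Without the 1/25, 24 h array 2 it was -1.13 with an adjusted p of 0.0423. The other Hcn2 probe, A_43_P15654, was well above background on all 20 arrays and differed by 0.08 ± 0.30 between the times (adjusted p = 0.853), with an r of -0.08 between the probes. The interval of the second probe, -0.55 to 0.71, does not contain the difference of the first.

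Hcn4 encodes the main pacemaker subunit of the sinus node and of the embryonic heart. Its untreated values of -3.75 and -3.94 were followed by -3.98, -4.02 and -4.05 at 1 for 6 h, all of them lower. At 1/5 and 1/25 for 6 h it read -4.17, -4.60 and -4.55, and -3.45, -5.66 and -4.35. At 24 h it read -3.61, -4.90 and -4.95 at 1, -5.56, -4.62 and -5.21 at 1/5, and -5.76, -2.74 and -5.15 at 1/25. The untreated, 1 for 6 h and 1/5 for 6 h groups followed each other without overlap, but the fitted differences from untreated were only -0.17 ± 0.72 and -0.60 ± 0.72 (adjusted p = 1.00 for both). The 4 values on the low-share arrays were not well above background. The difference of 24 h from 6 h was -0.41 ± 0.37 (adjusted p = 0.407), and 0.01 with the share above background as a covariate. The probe A_44_P465011 was well above background on 2 arrays alone, both at 1 for 6 h, at -3.26 and -2.97; array 1 of that group read -7.95.

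The spread between arrays of a group set how much could be seen. The pooled within-group SD was 1.16 for Kcnq1, 1.00 for Kcnj3 and 0.99 for Hcn2, larger than in 91.3%, 84.4% and 84.4% of genes; it was 0.53 for Kcnd2, larger than in 38.6%. The median over all genes was 0.62. Apart from untreated, 1 for 6 h and 1/5 for 6 h in Hcn4 and untreated and 1 for 6 h in Kcnh2, every pair of groups next to each other in the order of means overlapped in these genes. The highest mean was that of 1/5 for 24 h in Kcnd2, Kcnd3 and Kcnj2, of 1 for 6 h in Kcne1 and Kcnj3, of untreated in Kcnh2 and Hcn4, of 1/25 for 6 h in Hcn2 and of 1 for 24 h in Kcnq1. With 1 of its 2 spots saturated, the untreated mean of Hcn2 is a lower bound, so its place in that order is not known. The lowest mean was that of 1/5 for 24 h in Kcne1, Kcnj3, Hcn2 and Hcn4, of 1/25 for 6 h in Kcnd2, Kcnd3 and Kcnj2, of 1 for 24 h in Kcnh2 and of 1/25 for 24 h in Kcnq1.

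**Figure D3:**
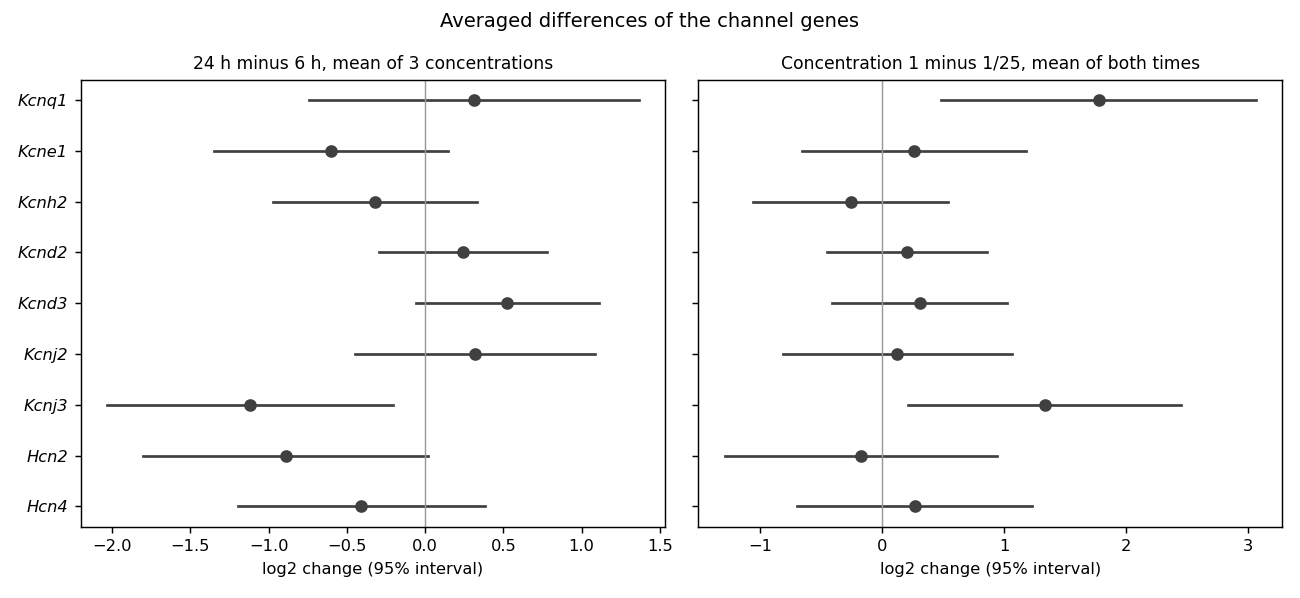
Difference in log2 signal (horizontal axes) with its 95% interval for the 9 channel genes (vertical axis), at left for 24 h minus 6 h over the 3 concentrations and at right for concentration 1 minus 1/25 over both times. No value has an adjusted p under 0.05; Kcnj3 has an interval below 0 at left and Kcnq1 and Kcnj3 have intervals above 0 at right.

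Over the 3 concentrations, 5 of the 9 genes were lower and 4 higher at 24 h than at 6 h, with a median difference of -0.32 beside -0.09 over all genes. Besides the values given above, the difference was -0.60 ± 0.35 for Kcne1 (adjusted p = 0.197), -0.32 ± 0.31 for Kcnh2 (0.435), 0.32 ± 0.36 for Kcnj2 (0.511) and 0.31 ± 0.50 for Kcnq1 (0.646). Scaling each array to its median in place of the 75th percentile moved the median of all genes to 0.30 and that of the 9 to 0.07; the share of higher genes among those called was 36.6% with the 75th percentile, 60.1% after quantile normalization and 77.0% with the array median. By their representing probes, Kcnj3 and Hcn2 were below 0 and Kcnd3 above 0 in each of the 10 processings shown in the plot of processings. The other probe of Hcn2 and that of Kcnd3 did not share these signs. Kcnh2, Hcn4 and Kcne1 changed sign in 3, 2 and 1 of the 10, and Kcnj2, Kcnd2 and Kcnq1 in 2, 1 and 1. Slides and scan days held mostly 1 time each, so for the average of 24 h against 6 h the time and the slide cannot be told apart. Both untreated arrays were on slide 1 and scan day 1, which held no array of 24 h or of the lowest concentration. For these groups against untreated, treatment cannot be told apart from slide and scan day either. The same holds for 24 h against 6 h at each higher concentration, and at 6 h for the lowest concentration against the others. At 24 h, concentration 1 was on slide 4 alone and 1/5 on slide 5 alone, so their difference cannot be told apart from the slide. Neither can 24 h against 6 h at 1/25, whose groups shared no slide. For 1 against 1/25 over both times, as given for Kcnq1 and Kcnj3, concentration and slide cannot be told apart either. With the slide as a block, 4 comparisons could be fitted, and 0 of 36 tests of these genes passed. With the scan day as a block, 0 of 54 passed in 6 comparisons.

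**Figure D4:**
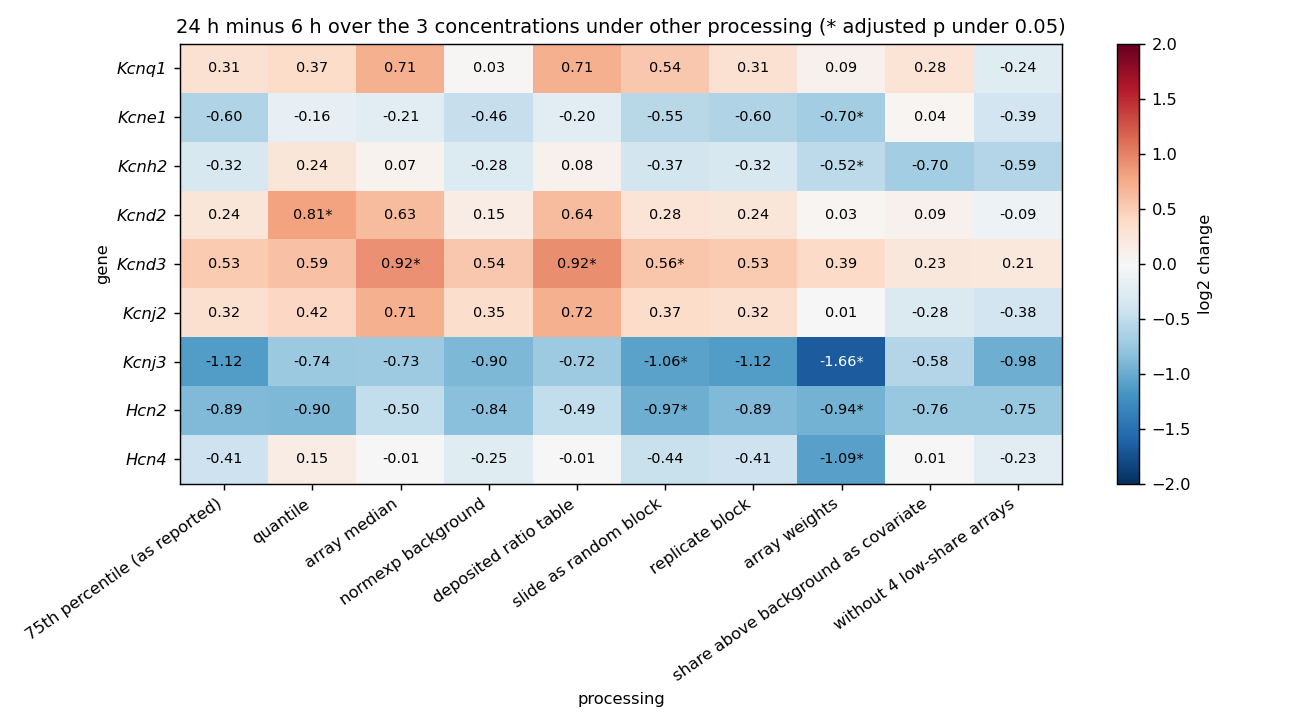
Difference of 24 h from 6 h over the 3 concentrations (colour and number, log2 change) for each channel gene (vertical axis) under 10 processings (horizontal axis); an asterisk marks an adjusted p under 0.05. Kcnj3 ranges from -1.66 with array weights to -0.58 with the share of spots above background as a covariate, and no gene passes in the first column.

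Other channel genes of the action potential were counted from lists of related subunits. Among the sodium channel subunits, Scn7a and Scn4b rose from 6 h to 24 h over the concentrations, and 0 genes of the list passed in any other comparison. Scn7a, the sodium-sensing member of the family, rose by 1.72 ± 0.29 (adjusted p = 0.00282) and passed in all 34 alternatives. Its group means lay between -3.37 and -3.21 at 6 h and between -1.77 and -1.22 at 24 h, with -3.49 ± 0.48 (SD, n = 2) in the untreated cultures. Scn4b, an accessory beta subunit, rose by 0.68 ± 0.20 (adjusted p = 0.0292), a call kept in 20 of 34 alternatives. It was lost on leaving out any 1 of 10 arrays, the 1, 24 h array 2 the most (adjusted p up to 0.0717). With the mean over the kept probes of Scn4b the difference was only 0.08 (adjusted p = 0.731, limma), so the rise is that of its brightest probe and not of all its probes. The neuronal marker Syt1, named after its values were seen, was also higher at 24 h, by 0.87 (adjusted p = 0.0454, limma). Of the 4 neuronal markers measured it was the only 1 called. Tubb3 stood at 0.56, Elavl4 at 0.02 and Th at -0.16 (adjusted p = 0.104, 0.953 and 0.708, limma). The summed neuronal markers ranged from -1.50 to -0.55 at 6 h and from -1.21 to 0.71 at 24 h. Their part in the Scn7a value was not tested.

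Among potassium channel lists, 0 of 16 other voltage-gated subunits passed; the largest difference at 24 h against 6 h was that of Kcnc1 (-1.30 ± 0.58, adjusted p = 0.107), which was also that for 1 for 24 h against untreated (-1.32 ± 1.13, adjusted p = 0.999). Of 8 accessory subunits 1 passed, Dpp10, a partner of the transient outward channels Kcnd2 and Kcnd3, with an adjusted p of 0.0180. It was well above background on 0 of 9 arrays at 6 h, on neither untreated array and on 8 of 9 at 24 h. It was thus kept only through groups in which it was high, and its difference has a bound alone. The 24 h mean was at least 1.74-fold higher at 1 and 3.13-fold at 1/5. At 1/5 the 24 h arrays spread widely, with -2.63 on array 3 beside -4.91 and -5.59. At 1/25 no bound is given, since only 2 of 3 arrays at 24 h measured it. Of 9 inward rectifier and ATP-sensitive channel subunits 1 fell, Abcc9, the sulphonylurea receptor of the cardiac ATP-sensitive channel, by 1.45 ± 0.42 (adjusted p = 0.0263). Of 9 background and calcium-activated channels 2 fell, Kcnk6 by 0.71 ± 0.18 and Kcnk9 by 1.03 ± 0.33 (adjusted p = 0.0189 and 0.0376). The pacemaker channel gene Hcn3 did not pass; it stood at 1.50 ± 0.63 for 1 for 24 h against untreated (adjusted p = 0.999). Of 8 calcium channel subunits 1 rose, Cacnb2, the main cardiac beta subunit, by 0.64 ± 0.20 (adjusted p = 0.0351). Since 21.1% of all genes were called in this contrast, 13.4% lower, counts of 0 to 2 in lists of 8 to 16 genes are no result about the lists.

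The medians of these lists for 24 h against 6 h were -0.42 for other voltage-gated subunits, -0.26 for accessory subunits, -0.44 for inward rectifiers, -0.41 for background channels and -0.22 for calcium channels, each below the -0.09 of all genes. In 0 of the other 16 comparisons did a gene of these lists pass. Leaving out any 1 of 4 arrays ended the call for Abcc9 (1/25, 6 h array 3, 1, 24 h array 2, and 1/25, 24 h arrays 1 and 3; adjusted p up to 0.0624), any 1 of 12 that for Kcnk9 (up to 0.0864) and any 1 of 11 that for Cacnb2 (up to 0.0759). No single array ended those for Dpp10 and Kcnk6, which were lost with the share above background as a covariate (adjusted p = 0.129 and 0.080) and without the 4 low-share arrays (0.0902 and 0.0659). The calls for Abcc9, Kcnk9, Cacnb2 and Scn4b were lost in these 2 alternatives too. Their adjusted p was 0.191, 0.274, 0.205 and 0.173 with the covariate, and 0.111, 0.0543, 0.123 and 0.0997 without the 4 arrays (limma). Dpp10 also missed the threshold with normexp background correction (0.0646), and Kcnk6 with the array median (0.247) and with the mean over its kept probes (0.105). Kcnk9 lost its call in 19 of 33 alternatives. Among them were quantile normalization (adjusted p = 0.0837), the array median (0.0595), normexp (0.0645), the deposited ratios (0.0610) and the replicate block (0.0556, limma). Abcc9 missed the threshold with quantile normalization too (0.0519). Cardiomyocyte markers, also named after their values were seen, did not shift as one over the same contrast. Ryr2 fell by 0.99 and Actn2 by 1.60 (adjusted p = 0.0228 and 0.0310, limma), whereas Myh7 stood at 1.10 and Myh6 at 0.98 (adjusted p = 0.0656 and 0.133). The summed level of the 10 ranged from 4.16 to 4.58 at 6 h and from 3.88 to 6.64 at 24 h. That highest value was in the 1/5 group, and at 24 h the highest was 4.38 at 1 and 4.81 at 1/25. The part of these markers in the channel values was not tested.

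By Pearson correlation over the 20 arrays, among 12767 genes measured on all of them, the most alike gene was Tmem87a for Kcnj3 (r = 0.97), Tlr9 for Kcnq1 (0.95), Sh2b2 for Hcn2 (0.95), Smarca4 for Kcnj2 (0.94), Ascl4 for Kcne1 (0.93), Plk4 for Kcnd3 (0.92), Kcnc1 for Hcn4 (0.90), Apol7b for Kcnd2 (0.89) and Hspa1a for Kcnh2 (0.83). The arrays share their scaling and, in pairs or fours, their slides. Among the 9 genes themselves, Kcnj3 and Hcn4 had an r of 0.75 and Kcnd3 and Hcn2 one of -0.81. The first includes the low-share arrays, where Hcn4 was not well above background and Kcnj3 had its lowest values. The second holds for the representing probes alone, since the probes of Kcnd3 had an r of -0.35 and those of Hcn2 one of -0.08.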

How the data were processed

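Total RNA of 20 samples was labelled with Cy3 and hybridized to 1-colour Agilent arrays. Per the file headers, the deposited intensity values are processed signals of Agilent Feature Extraction 9.5.3.1, background-subtracted within each array, with probe positions on build rn3. The authors also deposited a table of ratios, used as an alternative: 94.7% of its values lie within 0.01 (log2) of the processed signal over the array's median, divided by the mean of the untreated arrays; how the authors made it is not given in the sources used here.

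Here each array's log2 intensities were set relative to its own 75th percentile, with control and outlier-flagged spots left out. Replicate spots were averaged. A probe was kept if some group had it well above background on all its arrays (35069 of 41012), and the brightest represents a gene. Symbols were updated through RefSeq's table for GRCr8. Group means were fitted over all 20 arrays with limma 3.58.1 in R 4.3.3, with 17 comparisons, empirical Bayes moderation, two-sided tests and a threshold of 0.05 after Benjamini-Hochberg adjustment over all genes; SE and intervals are those of the fit. The scripts were tested on simulated data. Named are all 9 genes with all probes, the most alike gene of each, and of each list up to 3 genes that passed or, where none did, those with the largest difference at 24 h against 6 h and at 1 for 24 h against untreated; some list genes are not reported here. The genes, lists and tests were chosen with earlier results of these data known. The number of arrays limits the precision. Slides and scan days were numbered from the file headers. Deviations of arrays with the same replicate number had a median correlation of -0.04 over 57 pairs, so the numbers were not taken to pair the arrays.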

Additional observations from a re-analysis of the deposited data

How the results depend on the processing

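The count of channel gene tests past the threshold, 0 of 153, stayed 0 with normexp background correction, without a filter on dim probes, with probe means, with the share of spots above background as a covariate, without the 4 arrays under 80%, with robust moderation, with only the groups compared, and with slide or scan day as a fixed block (the latter chosen after seeing the data). Probes above background on all arrays left 6 of the 9 genes and 0 calls. The replicate block gave 0, and 0 in the F test. The count was 1 with quantile normalization (Kcnd2, 0.81), 1 with the array median and 1 with the deposited ratios (Kcnd3, 0.92 in each), 11 with the slide as a random block and 24 with array weights; the F test called 0, 0, 0, 4 and 6. The random block had a correlation of -0.17 within slides, and with it and with weights the F test called 14935 and 23655 of all genes, beside 212; the cause was not tested. Leaving out 1 array gave 0 to 9 calls, and 0 to 1 in the F test: 9 without the 1/5, 24 h array 2, 2 without the 1/25, 24 h array 2, and 1 each without the 1/25, 6 h arrays 2 and 3 and the 1, 24 h array 1. Of 5336 single values recomputed, 5051 moved by less than their SE without a call, and 316 differed in sign. Kcnd3 by probe A_44_P125646 (chosen after seeing the data) was called at -2.03, where the representing probe gave 0.53. That size has no exact value, since 6 of 9 values at 24 h were not well above background, and the probe was kept only through 6 h groups in which it was high. Genes called at 24 h against 6 h numbered 6422, between 1010 (covariate) and 21222 (weights) in the alternatives.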
